A study of Mus musculus with 2 samples.

Results

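The 80 protein-coding genes described here encode the proteins of the cytosolic ribosome. They were taken by symbol from the 21884 protein-coding genes of GENCODE release M21 that were used: Rpl or Rps followed by a number and at most a letter a, l or x, together with Rplp0, Rplp1, Rplp2 and Rpsa, with the Rps6k kinases left out. The rule uses names only and no measured value. It gives 76 genes of the standard particle, 46 of the large and 30 of the small subunit, and 4 genes with the suffix l, Rpl3l, Rpl10l, Rpl39l and Rps27l, which encode second copies of standard proteins.

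Chromatin accessibility was profiled with DNase-seq. The adrenal glands came from male B6CASTF1/J mice, a first-generation hybrid of B6 and CAST parents, aged 25 days, with no treatment named. There is 1 group of 2 libraries, called replicate 1 and replicate 2, with no control group, so values are given for each library and no test between groups was possible. The labels call the libraries biological replicates and number the animals separately, but they give the same donor code to both, so the spread between the libraries may hold little animal-to-animal variation. The coordinates are those of mm10, a B6 reference, and whether reads from the CAST chromosomes were lost was not tested.

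DNase I cuts DNA where nucleosomes are absent or loose, and a stretch cut often is called a DNase I hypersensitive site (DHS). Within a DHS, a short stretch that is cut less than its surroundings is called a footprint and is commonly left by a bound protein. Replicate 1 had 130945 DHSs with a median height of 1.01 and 272597 footprints, and replicate 2 had 157786 DHSs with a median height of 0.720 and 184847 footprints. Heights are whole multiples of a step, the value of 1 count, of 0.00833 and 0.00888. All 6 adrenal cortex markers and all 3 chromaffin cell markers examined had a promoter DHS in both libraries, against 0 of 2 for kidney, for liver and for testis germ cells. The heights of the cortex and chromaffin markers ran from 0.458 and 0.666 for Mc2r to 9.01 and 4.09 for Nr5a1. Mc2r stood at percentiles 2.35 and 6.89 of all promoters with a DHS. Dbh had 1.05 and 0.799 and Th 1.37 and 1.13, so the count includes low DHSs. Lymphocyte markers had a DHS at 0 of 2 promoters in replicate 1 and 2 of 2 in replicate 2, erythroid markers at 0 and 1 of 2, and skeletal muscle markers at 1 of 2 in each. The muscle marker with a DHS, Ckm, had 5.97 and 4.56. That was above every cortex and chromaffin marker in replicate 2, while Star, Cyp11a1 and Nr5a1 were higher in replicate 1. Over all protein-coding genes 69.4% and 69.2% had a promoter DHS, so the marker counts alone identify the tissue only loosely. The tissue is a mixture, so a low height cannot be told apart from openness in fewer cells.

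Ribosomes translate mRNA in every cell, and each carries a copy of nearly every protein of both subunits, so the genes are expressed together at very high levels. Their mRNAs begin with a 5′ terminal oligopyrimidine (TOP) tract, a C followed by further pyrimidines, through which translation of the whole set is tuned to nutrient signals. The transcription start itself lies in this tract, and many of the genes also carry small nucleolar RNAs (snoRNAs), guides of ribosomal RNA modification, in their introns. Adrenal cortex and medulla both secrete continuously and depend on this machinery like other tissues.

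The starts of 6 genes are shown to make the tract visible. They were picked after the runs were known, from the genes whose longest pyrimidine run within 100 bp of the DHS centre has at least 11 bases, begins within 10 bp of a GENCODE or RefSeq start and can be shown with at most 30 bases past a start. They come from both subunits. Sequences here are RefSeq's GRCm38.p6 assembly, which is mm10, 5′ to 3′ on the strand of the gene, and the capitals mark the longest pyrimidine run, with 45 bases before and 8 bases after it.
Rpl35 (chr2:39005113-39005183, minus strand): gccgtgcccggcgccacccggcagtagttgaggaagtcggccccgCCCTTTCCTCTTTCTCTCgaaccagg
Rps25 (chr9:44407647-44407713, plus strand): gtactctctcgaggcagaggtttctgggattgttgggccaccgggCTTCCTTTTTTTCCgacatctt
Rpl31 (chr1:39367788-39367853, plus strand): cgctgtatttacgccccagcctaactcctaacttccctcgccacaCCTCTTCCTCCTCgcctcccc
Rps10 (chr17:27635227-27635292, minus strand): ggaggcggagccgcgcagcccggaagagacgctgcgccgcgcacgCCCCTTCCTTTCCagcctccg
Rpl8 (chr15:76904036-76904099, plus strand): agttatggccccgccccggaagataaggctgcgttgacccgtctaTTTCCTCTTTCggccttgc
Rps18 (chr17:33955649-33955712, minus strand): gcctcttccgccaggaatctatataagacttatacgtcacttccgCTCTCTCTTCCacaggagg

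The first question was whether these promoters are open in the adrenal gland. A promoter was called open when any annotated start of the gene had a DHS no farther than 1 kb away. Replicate 1 had 78 open promoters among the 80 genes and replicate 2 had 79, which is 97.5% and 98.8%, where 69.4% and 69.2% of all protein-coding genes were open. All 76 genes of the standard particle were open in both libraries. Each promoter that was closed or nearly so belonged to a gene with the suffix l. Other gene sets needed for growth were also open throughout: 78 of 78 genes of the mitochondrial ribosome, which translates mRNAs of mitochondrial DNA, 23 of 23 ribosome biogenesis genes and 23 of 23 genes that are ribosomal outside the symbol rule or have other TOP mRNAs. Being open in every case therefore does not set the ribosomal protein genes apart from these sets.

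The heights lay mostly above the middle of all open promoters. The height of a promoter is that of its strongest DHS. Over the open ribosomal protein promoters the median height was 12.9 in replicate 1 and 9.41 in replicate 2, and over all open promoters it was 8.86 and 6.25. The median member stood at percentile 67.2 and 67.7 of all open promoters. Above the all-gene median were 53 of 78 members in replicate 1 and 63 of 79 in replicate 2, and 9 and 11 were in the highest decile, which holds 10% of all open promoters by construction. In the lowest quartile there were 2 in each library. The small subunit genes had a median height of 14.4 and 9.89 and the large subunit genes 12.5 and 9.35, with ranges of 4.70 to 21.7 and 2.91 to 31.1 in replicate 1. Of the members in the highest decile, 8 in replicate 1 and 7 in replicate 2 were of the large subunit and 1 and 4 of the small subunit.

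**Figure D1:**
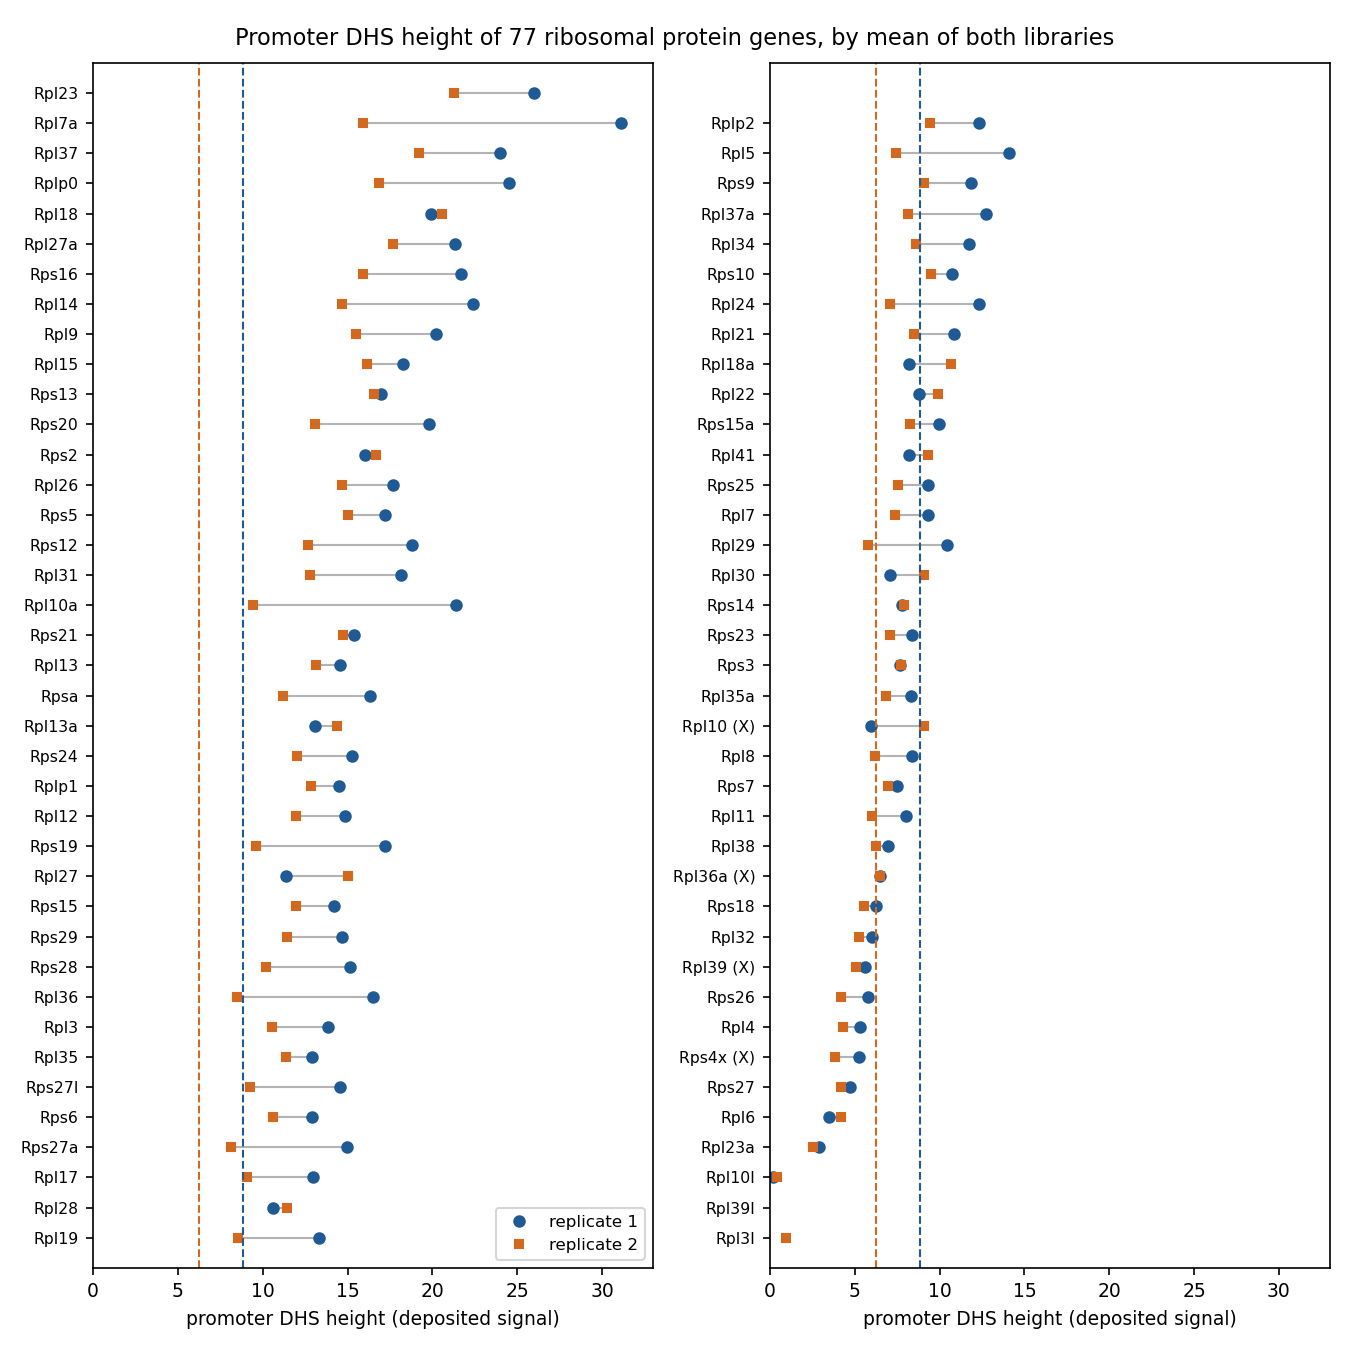
Height of the strongest promoter DHS (x axis, deposited signal) for 77 of the 80 genes (y axis, ordered by the mean of both libraries, with genes on the X chromosome marked X), as circles for replicate 1 and squares for replicate 2, and dashed lines at the median of all open promoters in each library. Heights of the standard genes ran from 2.91 to 31.1 in replicate 1 and from 2.56 to 21.3 in replicate 2, and Rpl39l has no symbol because it had no DHS.

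Large subunit proteins held all of the 5 highest mean heights. Rpl7a (chr2:26910764-26913318) reached 31.1 (95% Poisson interval 30.1 to 32.1) in replicate 1 and 15.9 (15.2 to 16.7) in replicate 2. Rpl23 (chr11:97777527-97782437) had 26.0 and 21.3, the most even pair among the tallest promoters after Rpl18. Rpl37 had 24.0 and 19.2. These intervals cover counting error only, and for Rpl7a the libraries differed far beyond it. Rplp0, the protein on which the ribosomal stalk is built, had 24.5 and 16.9, and Rpl18 had 19.9 and 20.5, but the Rpl18 values come from different DHSs, which lay at separate annotated starts.

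At the low end, Rpl10l had 0.192 and 0.409. Rpl23a followed with 2.91 and 2.56 and Rpl6 with 3.50 and 4.18. Rps27 had 4.70 and 4.21 and Rps4x 5.22 and 3.83. Except for Rpl10l, these are genes of the standard particle, and their promoters lay between percentiles 22.5 and 37.8 of all open promoters.

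The stalk is the flexible arm that recruits translation factors. Its 4 genes were above the all-gene median in both libraries, with 24.5 and 16.9 for Rplp0, 14.8 and 12 for Rpl12, 14.5 and 12.8 for Rplp1, and 12.3 and 9.41 for Rplp2. Rpl5 and Rpl11 bind 5S ribosomal RNA and, when free, inhibit Mdm2, the ubiquitin ligase of p53. Rpl5 had 14.1 and 7.45 and Rpl11 had 8.02 and 6.03, so Rpl11 was below the all-gene median in both libraries. Rpsa, a small subunit protein also known as a laminin receptor, had 16.3 and 11.2.

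The 4 genes on the X chromosome were among the lower ones. Rpl10, a late-joining protein near the peptidyl transferase centre, had 5.96 and 9.08, Rpl36a 6.50 and 6.48, Rpl39, a small protein of the exit tunnel, 5.57 and 5.06, and Rps4x 5.22 and 3.83. Their median was 5.77 in both libraries, where the 72 autosomal standard genes had 13.0 and 9.78. No X-linked member was above the all-gene median in replicate 1, and 2 were in replicate 2, Rpl10 and Rpl36a. The same held for genes in general: open X-linked promoters had a median height of 3.79 and 2.82 and open autosomal ones 9.18 and 6.47. Male cells have a single X chromosome and a pair of each autosome, and the part of that in the difference was not tested. The members' lower height on the X chromosome therefore had the same direction as that of all genes.

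Against the sets beside them, the ribosomal protein genes were in the middle. Mitochondrial ribosomal protein genes had a median of 12.1 and 8.67, with 9.35 and 8.65 for Mrpl1, 11.9 and 8.95 for Mrpl10 and 5.25 and 5.03 for Mrpl11. Ribosome biogenesis genes had 10.8 and 8.63, with 18.1 and 16.8 for Ncl, which encodes nucleolin, 9.74 and 7.67 for Fbl, the rRNA methyltransferase fibrillarin, and 18.4 and 15.9 for Nop56. The 23 genes outside the rule or with other TOP mRNAs were the tallest set, at 18.6 and 12.2. Fau, which encodes a ubiquitin-like protein fused to a ribosomal protein, had 25.1 and 22.2, and Rack1, a small subunit protein outside the naming scheme, 7.48 and 5.92. Mrpl49 of the mitochondrial set had the same heights and footprint numbers as Fau, so that height cannot be assigned to Fau alone. These lists were not compared by a test.

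**Figure D2:**
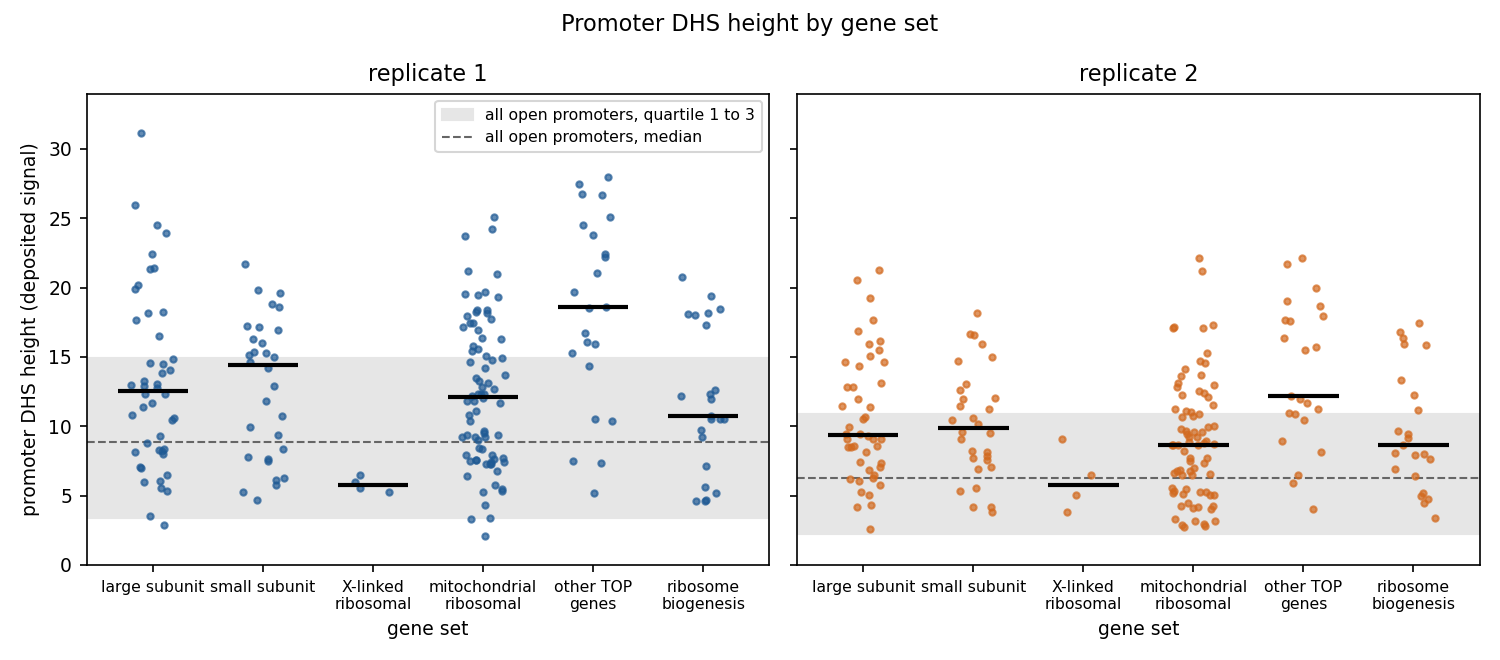
Promoter DHS height (y axis, deposited signal) of each gene (points) by gene set (x axis) in replicate 1 (left) and replicate 2 (right), with a bar at the median of the set, a dashed line at the median of all open promoters and a grey band from their lower to their upper quartile; genes with the suffix l are left out and X-linked genes also appear in their subunit. The X-linked ribosomal protein genes have medians of 5.77 in both libraries, and the other TOP genes have the highest medians, 18.6 and 12.2.

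The copies with the suffix l are known for expression in particular tissues, Rpl10l and Rpl39l in male germ cells and Rpl3l in heart and skeletal muscle, while Rps27l is expressed widely and responds to p53. Their starts are printed beside those of the standard genes to let the copies be compared, with 60 bases before the start in lower case and 20 bases from the start in capitals.
Rpl3 (chr15:80083387-80083466, minus strand): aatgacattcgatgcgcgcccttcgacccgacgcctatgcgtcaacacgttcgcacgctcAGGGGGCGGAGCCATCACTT
Rpl3l (chr17:24727760-24727839, plus strand): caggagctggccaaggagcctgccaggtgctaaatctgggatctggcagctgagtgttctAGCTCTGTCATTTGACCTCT
Rpl10 (chrX:74270752-74270831, plus strand): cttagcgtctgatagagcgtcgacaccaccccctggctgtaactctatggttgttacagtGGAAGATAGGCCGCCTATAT
Rpl10l (chr12:66284382-66284461, minus strand): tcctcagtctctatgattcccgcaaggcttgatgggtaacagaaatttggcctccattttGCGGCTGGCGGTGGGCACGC
Rpl39 (chrX:37085383-37085462, minus strand): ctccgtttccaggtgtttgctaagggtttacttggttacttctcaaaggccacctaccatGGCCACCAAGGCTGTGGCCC
Rpl39l (chr16:10170168-10170247, plus strand): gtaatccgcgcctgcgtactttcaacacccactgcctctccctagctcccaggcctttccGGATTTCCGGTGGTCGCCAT
Rps27 (chr3:90213632-90213711, minus strand): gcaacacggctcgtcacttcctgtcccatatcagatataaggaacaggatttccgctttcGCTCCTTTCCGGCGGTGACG
Rps27l (chr9:66946026-66946105, plus strand): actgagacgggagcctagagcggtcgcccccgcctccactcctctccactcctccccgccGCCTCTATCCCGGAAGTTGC

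Rpl39l had no DHS within 1 kb of a start in either library. Rpl3l had none in replicate 1 and a DHS of 99 bp and height 0.942 in replicate 2, centred 265 bp past a start. Rpl10l had DHSs of 49 and 81 bp centred 276 and 381 bp past its start, inside the gene, which did not overlap between the libraries and held no footprint. Their heights of 0.192 and 0.409 rest on 23 and 46 counts, so that their 95% Poisson intervals run from 0.121 to 0.288 and from 0.299 to 0.545. They stand at percentiles 0.145 and 2.33 of open promoters. The standard partners had 13.8 and 10.5 for Rpl3, 5.96 and 9.08 for Rpl10, and 5.57 and 5.06 for Rpl39.

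Rps27l went the other way. Its promoter had 14.5 and 9.24 with 6 and 4 footprints, where its partner Rps27 had 4.70 and 4.21 with 3 and 2. The CpG content from 250 bases before to 50 after the start of the principal GENCODE transcript, which need not be the start printed above, also differed between these copies. The ratio of observed to expected CpG was 0.0893 for Rpl3l and 1.12 for Rpl3, but 0.836 for the closed Rpl39l and 0.328 for the open Rpl39. Over all 80 genes the median ratio was 0.855, against 0.556 for all protein-coding genes, at the same median G+C content of 56.0%. Other genes of like height had 0.803 and 0.809, mitochondrial ribosomal protein genes 0.822, biogenesis genes 0.872 and the other TOP genes 0.903, so the higher ratio was shared with these open promoters.

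Processed pseudogenes of ribosomal protein mRNAs are numerous in the mouse genome and carry coding sequence without the original promoter. Of 291 annotated pseudogenes named for a member, 27 (9.28%) had a DHS within 1 kb of their annotated 5′ end in replicate 1 and 32 (11%) in replicate 2. Among the 284 with no protein-coding start within 2 kb, 24 and 30 had such a DHS, with median heights of 0.70 and 0.53. The tallest, picked after its value was seen, was at Rpl38-ps1, with 7.83 in replicate 1 centred 1082.5 bp past the annotated 5′ end and 1.58 in replicate 2 at a different place. Reads of near-identical copies can be hard to place, and how the authors treated them is not given in the sources used here.

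The shape of the promoter DHSs was ordinary. Their median width was 200 bp in replicate 1 and 180 bp in replicate 2, and over all open promoters it was 200 and 196 bp. The narrowest DHS of a standard gene in replicate 1 was that of Rpl26, at 120 bp, and the widest that of Rps21, at 400 and 320 bp. Centres lay a median distance of 46 and 43.5 bp from the nearest annotated start, against 59.5 and 63.5 bp for all genes, and within 100 bp in 80.8% and 77.2% of members, against 65.7% and 64.4%. Mitochondrial ribosomal protein genes were closer still, at 29 and 34.5 bp, with 85.9% and 84.6% within 100 bp. At heights within the members' interquartile range, the share within 100 bp was 86.8% and 84.6% of members and 76.0% and 76.5% of other genes. A lone DHS in the 2 kb window was seen for 32 of 78 and 34 of 79 members (41.0% and 43.0%), against 33.9% and 33.8% of all genes. Among mitochondrial ribosomal protein genes the share was 51.3% and 52.6%, so neither trait was particular to the members. The genes are also short, with a median length of 3328.5 bp where all genes have 17429 bp.

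For some members the centre lay away from the GENCODE start but close to the RefSeq start. Rpl35 was centred 443.5 bp past the nearest GENCODE start in both libraries, and 49.5 bp before the RefSeq start. Rps26 was centred 266.5 and 246.5 bp past the GENCODE start and 25.5 and 5.5 bp past the RefSeq start. The pyrimidine run of Rpl35, printed above, begins 7 bp before the RefSeq start. Over all members neither annotation was closer by every measure. In replicate 1 the RefSeq start was nearer in 22 members and the GENCODE start in 37, while the median distance was 44 bp for RefSeq and 46 bp for GENCODE, and 66 and 63 members were within 100 bp.

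In 15 of the 80 genes (18.8%) a coding start of another gene lay within 1 kb on the other strand, against 11.3% of all genes and 42.3% of mitochondrial ribosomal protein genes. Where the DHS lies between or over both starts, its height cannot be assigned to either gene. The strongest DHS was nearer to the neighbour's start in both libraries for Rpl7a (Med22), Rpl9 (Lias), Rpl12 (Lrsam1), Rps25 (Trappc4), Rpl4 (Zwilch) and Rps27 (Rab13). It was so in replicate 1 only for Rpl15 (Nkiras1), and in replicate 2 only for Rpl18 (Sphk2), Rps27a (Clhc1) and Rps18 (Vps52). The height of 31.1 for Rpl7a is among these: the DHS centre was 33.5 bp from the start of Med22, a Mediator subunit gene, and 53.5 bp from that of Rpl7a. For Rpl4 the strongest DHS was centred 7.5 bp from the start of Zwilch and at -454.5 bp from that of Rpl4. Members with such a neighbour had a median height of 14.8 and 10.2 and those without 12.8 and 9.42.

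Of the 80 genes, 29 (36.3%) held an annotated snoRNA on their strand, against 1.17% of all protein-coding genes. Rpl4 had 5 and Rpl13a had 4. The 29 hosts had median heights of 13.8 and 10.7 and the 47 other standard genes 12.3 and 9.29. Ranges overlapped, since hosts ran from 2.91 (Rpl23a, with 3 snoRNAs) to 31.1 (Rpl7a, with 3) in replicate 1.

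Footprints were counted when they touched the strongest DHS by at least 1 bp. The median was 4 per member in replicate 1 and 3 in replicate 2, the same as over all open promoters. Means were 4.51 and 3.51 against 3.99 and 2.89. For a comparison at like height, members whose height lay within the members' interquartile range were set beside other genes in the same range of height: the means were 4.74 and 3.62 for 38 and 39 members, and 4.59 and 3.56 for 5223 and 4229 other genes. The difference in footprint number was thus small at like height. The same held for the covered share. Without regard to height, 33.6% and 22.9% of the bases of member DHSs were in footprints, against 27.6% and 17.1% of those of all open promoters, but at like height the median share per DHS was 33.4% and 22.8% in members and 33.9% and 21.3% in other genes.

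Over both libraries Rps15a had the most footprints, 10 and 6, followed by Rpl29 with 8 and 6 and Rps21 with 7 and 7. None of these 3 was among the 5 tallest promoters. Rps4x had 0 and 2, the fewest of the standard genes in replicate 1. Where the strongest DHSs of both libraries overlapped, which was so in 75 members, 202 of 314 footprints of replicate 1 (64.3%) touched a footprint of replicate 2, and 206 of 262 (78.6%) the reverse. The same shares over all genes were 55.2% and 77.5%. At least 1 footprint was found in both libraries in 73 of 75 members (97.3%), against 85.6% of genes.

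**Figure D3:**
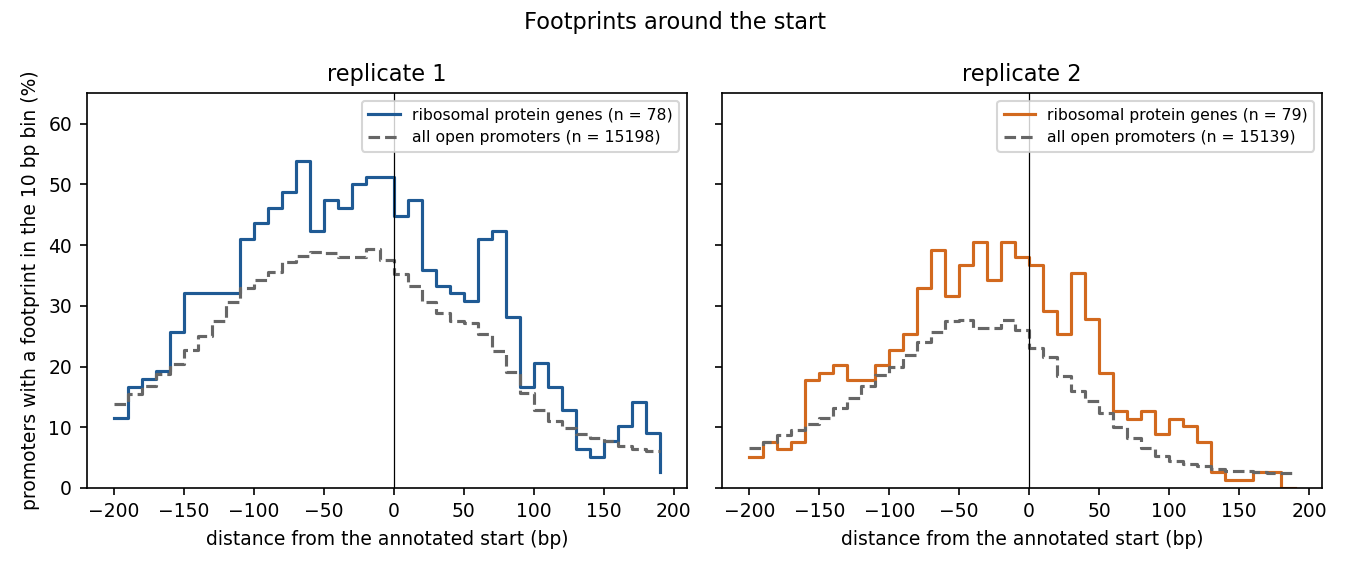
Share of open promoters (y axis, %) with a footprint in each 10 bp bin by distance from the annotated start nearest to the DHS centre (x axis, bp, negative before the start), for ribosomal protein genes (solid) and all open promoters (dashed), in replicate 1 (left) and replicate 2 (right). In the bin from 70 to 61 bp before the start the share is 53.8% of members against 38.1% of all genes in replicate 1, and 39.2% against 25.8% in replicate 2.

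In the same profile, which is not matched on height, the footprints were spread over the 100 bp before the start and a shorter stretch after it. The share of members with a footprint in the bin from 70 to 61 bp before the start was 53.8% in replicate 1 and 39.2% in replicate 2, against 38.1% and 25.8% of all genes. Past the start the libraries differed in place: in replicate 1 members stood out from 60 to 79 bp past the start, at 41.0% and 42.3% against 25.3% and 22.6%, and in replicate 2 from 30 to 39 bp, at 35.4% against 15.9%.

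The bases footprinted in both libraries are shown in capitals for Rpl23 and Rplp0, which are among the tallest promoters and have no neighbour, and for Rps21, one of the genes with most footprints. Each stretch runs from 200 bases before an annotated start through the first 25 bases from it. Whether transcription begins at that start was not measured, and the positions below depend on it. The longest pyrimidine run of Rpl23 begins 5 bp before another GENCODE start, farther downstream and outside the stretch shown.
Rpl23 (chr11:97782413-97782637, minus strand): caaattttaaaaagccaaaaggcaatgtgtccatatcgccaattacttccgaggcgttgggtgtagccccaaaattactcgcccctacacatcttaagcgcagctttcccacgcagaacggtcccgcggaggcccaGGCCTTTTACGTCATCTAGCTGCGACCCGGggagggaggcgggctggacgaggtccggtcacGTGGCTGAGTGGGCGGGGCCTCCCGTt
Rplp0 (chr5:115559267-115559491, plus strand): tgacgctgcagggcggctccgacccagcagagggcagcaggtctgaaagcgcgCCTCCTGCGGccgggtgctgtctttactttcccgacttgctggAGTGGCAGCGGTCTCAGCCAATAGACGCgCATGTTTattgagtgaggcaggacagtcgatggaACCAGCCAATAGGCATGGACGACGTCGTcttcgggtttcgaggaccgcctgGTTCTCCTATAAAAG
Rps21 (chr2:180257177-180257401, plus strand): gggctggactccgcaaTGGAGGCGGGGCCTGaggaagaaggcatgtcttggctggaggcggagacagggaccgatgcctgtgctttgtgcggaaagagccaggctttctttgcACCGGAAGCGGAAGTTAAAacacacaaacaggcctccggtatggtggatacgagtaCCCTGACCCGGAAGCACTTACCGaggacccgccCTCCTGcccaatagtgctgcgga

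In Rpl23, 2 shared footprints covered 56 of these bases, and they held GGGCGG (GC box), first base 8 bp past the start, and ACGTCA, first base 56 bp before it. CACGTG at -5 bp, CGGAAG at -155 bp and CCAAT at -162 bp were not wholly inside them. In Rplp0, 5 shared footprints covered 88 bases. They held both CCAAT letters of the stretch, 87 and 36 bp before the start, and TATAAA 17 bp past it, but not GGGCGG at -190 bp. In Rps21, 4 shared footprints covered 63 bases and held all 3 copies of CGGAAG, the core of ETS family sites, at 85, 79 and 23 bp before the start, but not GGGCGG at -3 bp or CCAAT at 9 bp. A match of letters is a description and not evidence that a given factor was bound.

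The pyrimidine tract was more frequent at the starts of the members than over all genes. A C followed by at least 4 pyrimidines lay exactly at an annotated start in 22 of 80 genes (27.5%) and in 5.15% of all genes. When the C could lie within 5 bases of the start, it did so in 45 genes (56.3%) and 33%. Members had a mean of 2.74 annotated starts and all genes 2.48, so the number of starts searched was similar. To be free of the annotation, runs of pyrimidines were then sought within 100 bp of the DHS centre of replicate 1, a choice made after seeing the data. The longest run on the strand of the gene had a median of 11 bases in members and 8 in all open promoters. On the other strand the medians were 7 and 8.

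**Figure D4:**
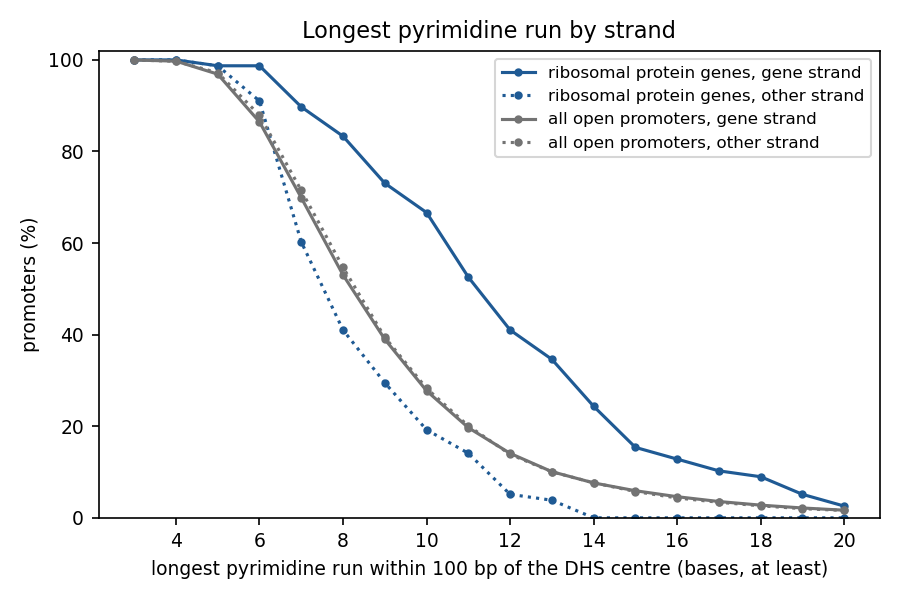
Share of open promoters (y axis, %) whose longest pyrimidine run within 100 bp of the DHS centre has at least the number of bases on the x axis, for ribosomal protein genes (blue) and all open promoters (grey), on the strand of the gene (solid) and the other strand (dotted). At 10 bases the gene strand reaches 66.7% of members and 27.7% of all genes, and the strands of all genes run together.

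The run was longer on the gene strand in 59 of 78 members (75.6%), longer on the other strand in 11 and equal in 8, and over all open promoters it was longer on the gene strand in 44.3%. Runs of at least 10 bases were found in 52 members (66.7%) against 27.7%. Rpl11 had the longest, 23 bases, which begins at -68 bp from its start and so is not a tract at the start, followed by Rpl34 with 20 bases beginning at -8 bp. The excess was present in both subunits, with 32 of 46 large (69.6%) and 20 of 30 small subunit genes (66.7%) at 10 bases or more. Mitochondrial ribosomal protein genes, whose mRNAs are not of the TOP class, had 18 of 78 (23.1%), and the other TOP genes 9 of 23 (39.1%).

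The runs lay at the downstream side of the DHS. The first base of the run was past the DHS centre in 54 of 78 members (69.2%) with a median of 35 bp, against 37.1% of all genes with a median of 28 bp before the centre. It was within 30 bp of a GENCODE start in 41 members (52.6%), against 19.8% of all genes. Footprints covered 21.3% and 12.7% of the bases of the members' runs, less than the 33.7% and 21.3% of all bases in the same windows. Over all genes these shares were 25.0% and 14.1% of run bases and 28.1% and 15.6% of window bases. Among the runs printed first, those of Rps10, Rpl8 and Rps18 held no footprinted base in either library, and that of Rpl35 held 8 in each. The run of Rps25 was footprinted over all its 14 bases in replicate 1 and over 1 base in replicate 2, and that of Rpl31 over 8 and 2 bases.

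Hexamers of the same windows were ranked by the difference between members and all open promoters, again after seeing the data. CTTTCC on the gene strand came first, present in 25 of 78 members (32.1%) against 8.37%, and CTCTTT second, in 28.2% against 5.12%. On the other strand CTTTCC was found in 6.41% and 7.98%. On the gene strand it was also in 5 of 23 biogenesis genes and 5 of 23 other TOP genes (21.7% each), and in 10.3% of mitochondrial ribosomal protein genes. CGGAAG came next, in 37.2% against 14.6%. It is the core of sites of the ETS family of transcription factors, and its reverse complement CTTCCG was also more frequent on the gene strand, in 29.5% against 13.3%. The hexamers thus differed by strand: CTTTCC was more frequent than in all promoters on the gene strand only, and CGGAAG on both strands. On the gene strand CTTCCG can also be the end of a pyrimidine run before a G, as in Rpl34 and Rpl29. Its count there is therefore not one of ETS cores alone. CTTTCC was sought anywhere in the window, so a match need not be a TOP tract.

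Motifs chosen from knowledge of such promoters were searched on both strands from 250 bases before to 50 after the start. The palindrome CTCGCGAG was found in 9 of 80 genes (11.3%) against 1.17% of all genes, and 1.69% of genes open in both libraries. The ETS site CCGGAAGT was found in 14 (17.5%) against 5.03% and 7.19%. Within 100 bp of the DHS centre it was in 19.2% of members and 6.64% of all open promoters. There it was also in 7 of 23 biogenesis genes (30.4%), 12.8% of mitochondrial ribosomal protein genes and 2 of 23 other TOP genes (8.70%). A raised share of the ETS site was thus not particular to the members. CRE (TGACGTCA) was found in 6 (7.5%) against 2.46% and 3.21%, the YY1 site (AAGATGGC) in 5 (6.25%) against 3.13% and 4.17%. The E box (CACGTG) was found in 10 (12.5%) against 7.70% and 9.67%, but from 100 bases before to 50 after the start in 6.25% against 4.71% and 6.05%. For the NRF1 core (GCATGCGC) the numbers were 4 (5.00%) against 3.74% and 4.77%, and 2.50% against 2.52% and 3.57% in the shorter window. The GC box (GGGCGG) was found in 42 (52.5%) against 45.4% of all genes and 63.0% of genes open in both, CCAAT in 24 (30%) against 38.5% and 37.4%, and TATAAA in 8 (10%) against 12.7% and 7.36%. In the longer window the members' shares of the palindrome, the ETS site, CRE, YY1, the E box and the NRF1 core were thus above both backgrounds. Those of CRE, YY1, the E box and the NRF1 core rest on 4 to 10 genes each. For the NRF1 core the share was below both in the shorter window. The share of CCAAT was below both in the longer window, while for the GC box and TATAAA the direction there depended on the background.

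The palindrome reads alike on both strands and was footprinted in most copies. Within 100 bp of the DHS centre it occurred in 11 of 78 members (14.1%) against 1.70% of all open promoters, 5 of the large and 6 of the small subunit, against 2 of 78 mitochondrial ribosomal protein genes (2.56%). Of the copies with at most 30 printed bases past a start, 3 are shown with 21 bases on either side and the palindrome in capitals.
Rpl26 (chr11:68901520-68901569, plus strand): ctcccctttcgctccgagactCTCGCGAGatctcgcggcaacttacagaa
Rps6 (chr4:86857389-86857438, minus strand): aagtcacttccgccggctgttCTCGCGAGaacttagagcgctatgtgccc
Rps28 (chr17:33824534-33824583, minus strand): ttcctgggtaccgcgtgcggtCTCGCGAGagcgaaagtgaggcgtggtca

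The copies of Rpl26, Rps6 and Rps28 were touched by a footprint in both libraries. Over copies inside member DHSs, 9 of 11 were touched in replicate 1 and 8 of 10 in replicate 2, against 77.2% and 64.1% of copies in all open promoters. CTTTCC on the gene strand was touched in 7 of 28 copies (25.0%) and 5 of 28 (17.9%), against 32.9% and 23.1% over all genes. TATAAA was touched in 6 of 7 copies in each library, against 45.2% and 29.9%. YY1 letters were touched in 5 of 7 copies in replicate 1 and 0 of 5 in replicate 2, against 56.3% and 41.9%. These are few copies, and some lie in the same gene.

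The members' heights were correlated between the libraries. Over the 78 members open in both, log2 heights of the libraries had a Pearson correlation of 0.928 and a Spearman correlation of 0.857. Over 14410 genes both coefficients were 0.946. Those points share their libraries and depth. The log2 ratio of the libraries had a standard deviation of 0.375 over members and 0.470 over all genes. The lower coefficients of the members therefore do not mean a wider spread between the libraries. Heights were lower in replicate 2 in 64 of 78 members (82.1%), against 88.3% of all genes open in both libraries. The median log2 ratio of the members was -0.29, but the ratio over all genes was -0.46. Relative to that, the median member was 0.18 higher in replicate 2, and 58 of 78 members were above the all-gene median. With 1 library for each replicate, no error can be put on this difference.

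The largest falls from replicate 1 to replicate 2 were in Rpl10a, 21.4 and 9.42, Rpl7a, 31.1 and 15.9, and Rpl36, 16.5 and 8.50, with log2 ratios of -1.19, -0.97 and -0.96. The largest rises were in Rpl10l, with the few counts given above, Rpl10, 5.96 and 9.08, and Rpl27, 11.4 and 15, with log2 ratios of 1.09, 0.61 and 0.40. These differences exceed counting error, since for Rpl10a the 95% Poisson intervals run from 20.6 to 22.3 and from 8.86 to 10. The strongest DHSs did not overlap between the libraries for Rpl18, Rps19 and Rpl10l. They overlapped in 75 of the 78 members open in both libraries, and in 13255 of 14410 genes.

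In the mean, fewer DHSs outside promoters were nearest to these genes than to all genes, while the medians were close. Counting DHSs that touch no promoter window and lie within 100 kb of the nearest coding start, members had a median of 1 and 2 and a mean of 2.69 and 2.60, and all genes had a median of 2 in both libraries and means of 3.59 and 4.03. None was nearest to 24 members (30%) in replicate 1 and 29 (36.3%) in replicate 2, against 28.7% and 23.9% of genes. For mitochondrial ribosomal protein genes the median was 1 in both libraries, the means 2.28 and 2.32, and 35.9% and 43.6% had none. Low numbers were thus not particular to the members. Rps24 had 15 and 8, Rpl14 14 and 12, Rplp1 12 and 14, and Rpl31 12 and 10. Nearness does not show that a DHS acts on the gene, and the number depends on how far away the next gene lies.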

How the data were processed

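DNase-seq of 2 adrenal gland libraries was used as deposited. Per the file headers, the authors deposited for each library a longer and a shorter peak list, a footprint list at a false discovery rate (FDR) of 0.01 and a list of cut-rate FDR values, all on mm10. The height is the signal value deposited in the peak lists, and the FDR list holds p-value-like numbers of at most 0.05, deposited by the authors. As to aligner, peak caller and settings, they were not given in the sources used here. Each library's heights are multiples of its own step (tolerance 0.01 of a step), from which the counts behind a height were taken for the 95% Poisson intervals, which cover counting error only. Libraries were not averaged except to rank genes.

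Starts are those of protein-coding transcripts in GENCODE M21: 21938 genes, of which 21884 remained after repeated symbols were dropped, with 54236 starts. For each gene the strongest DHS of the longer list touching 1 kb around any start was taken. Sequences and curated starts are RefSeq's for GRCm38.p6. Motifs were the exact letters given in the text, searched on both strands unless a strand is named. The genes named are the 5 highest and the 5 lowest by mean height, those closed in a library, the 3 largest ratios each way, the role groups, the 3 with most footprints, those nearer to a neighbour's start and the first 3 of each set; others were named after their values were seen, and a few genes and sequences are not reported here. The members and lists were chosen with earlier results of these data known. Python 3.11.15, numpy 2.4.6, pandas 2.3.3, scipy 1.17.1, pysam 0.24.0 and matplotlib 3.10.9 were used, and the scripts were tested on simulated data. Alternatives were the shorter list, other windows, the nearest DHS, other scaling, other tract definitions and each library alone. Runs, hexamers and windows around DHS centres were added after seeing the data.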

Additional observations from a re-analysis of the deposited data

How the results depend on the processing

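With 1 library left out, the number of members with a promoter DHS was 78 to 79, the median height 9.41 to 12.9, the median width 180 to 200 bp, the median number of footprints 3 to 4 and the median number of other DHSs nearest to a member 1 to 2. Of 43 values recomputed under an alternative, 40 stayed within the limits set and 3 moved. For height, width, footprint number and number of other DHSs, the limit was the standard deviation between the libraries. The value of 1 library always lies within that limit of the mean of both. The 40 include these values with 1 library left out, which could not move and so show nothing about stability. The share of members with a pyrimidine tract opening with C rose from 27.5% to 56.3% when the C could lie within 5 bases of the start, where the share of all genes rose from 5.15% to 33%. With a window from 100 before to 50 after the start, the E box share was 6.25% in place of 12.5% and the NRF1 core share 2.50% in place of 5.00%, where the shares of all genes were 4.71% and 2.52% and those of genes open in both libraries 6.05% and 3.57%. Relative to all promoters the median log2 ratio of members was 0.18, and 0.11 after scaling by the sum of heights. With the DHS centres of replicate 2, an alternative added after seeing the data, the longest run was longer on the gene strand in 77.2% of members and CTTTCC was found in 34.2%. No paired analysis was possible because there is 1 group. The depth limits heights of few counts, such as those of Rpl10l, and footprints in low DHSs.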
